A study of Mus musculus with 38 samples.

Results

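Spi1, Cebpa, Cebpb, Irf8 and Gfi1 encode transcription factors that direct blood progenitors into the myeloid lineages. The binding of RUNX1, CTCF, Med12, p300 and Notch1-IC around these 5 genes was read from ChIP-seq peak lists of mouse lymphoid progenitors before and after Notch stimulation. A peak was assigned to a gene when its centre lay from 50 kb before to 50 kb after the mm10 gene body. This rule gave 387 peaks of the 359759 in all 17 lists, and they fell into 85 sites when peaks that overlapped each other were joined. The windows ran from 101.504 kb at Cebpb to 133.367 kb at Spi1, and no measured value was used to choose the peaks. In GENCODE the gene bodies are chr2:91082390-91115756 for Spi1, chr7:35119293-35121928 for Cebpa, chr2:167688915-167690418 for Cebpb and chr8:120736358-120756694 for Irf8, all on the plus strand, and chr5:107716657-107726036 on the minus strand for Gfi1.

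The cells were Cas9-LPs, lymphoid progenitor lines made from fetal liver progenitors that lack Ebf1, a factor needed for B cells, and that carry Cas9 knocked into Rosa26. Every group shared this genotype. LP cells were grown on OP9 stroma without a Notch ligand. Phase 1 cells, and Phase 2 cells that stood for a later stage, were grown on OP9-DLL4, the same stroma made to display DLL4, a ligand of Notch. RUNX1, CTCF, Med12 and p300 were profiled in LP and Phase 1 cells, and Notch1-IC, the released intracellular part of Notch1, at all 3 stages. In further cultures retroviral guides against Ctcf (sgCTCF), Med12 (sgMed12) or Cbfb (sgCbfb), which encodes the partner subunit of all RUNX proteins, were set beside a control guide (sgCont). The guides for 1 gene were a pool, so these cultures are mixtures of cells with different edits. The labels put 34 ChIP samples into 17 groups of 2 replicates, and each group had 1 list that combined both. The other 4 samples were inputs with no list. The study's methods give only an approximate read number common to all samples and the lists give no totals, so the depth of each sample is not known here, and nothing in the labels says whether replicates came from separate cultures.

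PU.1, the product of Spi1, is an ETS-family factor that macrophages and granulocytes need, and it is also present in the earliest T-cell progenitors until they commit. C/EBPalpha and C/EBPbeta, from Cebpa and Cebpb, drive granulocyte and monocyte programs, IRF8 acts in monocytes and dendritic cells, and Gfi1 is a zinc-finger repressor of granulocytes and of early T cells. RUNX1 is known to work with these factors in myeloid progenitors. CTCF marks chromatin boundaries and loop anchors, Med12 is a subunit of Mediator, which links enhancers to RNA polymerase, and p300 is a histone acetyltransferase of active enhancers. The lists hold no expression values, so the label of the cells could not be checked against marker genes, and binding here says nothing of the level of a transcript.

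Several sites lay at distances where enhancers of these genes have been described in blood cells. A RUNX1 or p300 peak was searched for within 2 kb of 7 such positions. It was found at -13.6 kb from Spi1 (described at -14 kb), +37.4 kb from Cebpa (+37 kb), -35 kb from Gfi1 (-35 kb) and -50, +41 and +56.5 kb from Irf8 (-50, +41 and +56 kb). No RUNX1 or p300 peak lay within 2 kb of +32 kb from Irf8. Most of the 7 positions are at Irf8, whose window of 120.337 kb held 15 RUNX1 and 17 p300 peaks in LP. How often an arbitrary position in these windows would match was not computed. A match is therefore one of distance and does not show that a site is the described enhancer. Distances are from the start of the curated RefSeq transcript, and a minus sign means upstream.

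The sequences below are shown because they carry the patterns that follow. Each is the 200 bp around the centre of a RUNX1 peak on the plus strand of GRCm38.p6 from RefSeq, the build of the lists. Capitals mark, on either strand, the RUNX strings TGTGGTT and TGCGGTT, the PU.1 string GAGGAAGT, the C/EBP string TTGCNNCAA and the string GTGGGAA of RBPJ, through which Notch1-IC binds DNA. The first pair are the Cebpa +37.4 kb site (Phase 1 RUNX1 peak, chr7:35156646-35156845, intergenic) and the Gfi1 -35 kb site (Phase 1 RUNX1 peak, chr5:107759243-107759442, in an intron of Evi5). Both also held a Notch1-IC peak in LP cells. The third is the highest-scored Phase 1-specific RUNX1 peak of Cebpa (chr7:35084590-35084789, intergenic).
Cebpa +37.4 kb: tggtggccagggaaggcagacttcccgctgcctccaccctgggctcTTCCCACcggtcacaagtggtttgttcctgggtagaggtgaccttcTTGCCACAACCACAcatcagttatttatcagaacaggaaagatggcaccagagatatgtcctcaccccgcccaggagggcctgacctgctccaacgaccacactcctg
Gfi1 -35 kb: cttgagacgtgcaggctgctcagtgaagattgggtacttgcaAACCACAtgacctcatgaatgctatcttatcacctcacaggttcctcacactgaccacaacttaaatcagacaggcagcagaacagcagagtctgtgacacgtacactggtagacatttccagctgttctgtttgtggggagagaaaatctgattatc
Cebpa -34.6 kb: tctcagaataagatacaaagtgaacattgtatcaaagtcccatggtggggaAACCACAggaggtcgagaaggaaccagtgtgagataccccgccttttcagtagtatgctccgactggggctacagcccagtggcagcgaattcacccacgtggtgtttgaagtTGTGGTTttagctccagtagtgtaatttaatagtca
At +37.4 kb of Cebpa the C/EBP string and a RUNX string overlapped by 2 bases, and an RBPJ string lay to their left. The other set is from Irf8, all LP RUNX1 peaks. The +56.5 kb site (chr8:120792757-120792956, downstream of Irf8) was bound in both stages, and the +14.5 kb (chr8:120750780-120750979, in an intron of Irf8) and +50.4 kb (chr8:120786636-120786835) sites were LP-specific.
Irf8 +56.5 kb: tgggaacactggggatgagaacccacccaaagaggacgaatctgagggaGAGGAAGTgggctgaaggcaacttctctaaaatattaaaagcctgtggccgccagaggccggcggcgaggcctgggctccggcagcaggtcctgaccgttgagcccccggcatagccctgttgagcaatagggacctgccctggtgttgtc
Irf8 +14.5 kb: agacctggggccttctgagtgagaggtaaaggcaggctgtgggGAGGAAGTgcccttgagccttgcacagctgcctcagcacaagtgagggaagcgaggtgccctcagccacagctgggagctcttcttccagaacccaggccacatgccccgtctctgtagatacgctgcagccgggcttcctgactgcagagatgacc
Irf8 +50.4 kb: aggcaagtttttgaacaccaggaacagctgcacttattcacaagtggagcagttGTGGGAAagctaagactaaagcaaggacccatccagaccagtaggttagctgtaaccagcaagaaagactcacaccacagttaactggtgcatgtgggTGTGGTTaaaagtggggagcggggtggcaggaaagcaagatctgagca
GENCODE also places an overlapping gene, Gm20388, across the Irf8 window. The midpoint of every Irf8 site was assigned to an intron of that gene, apart from +4.4 kb, where an exon of Irf8 took priority.

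The first comparison asked how many peaks each gene held in each stage. Irf8 had the most, with 15 RUNX1, 13 Med12 and 17 p300 peaks in LP, against a median of 3 for each factor over the same windows of 21938 protein-coding genes. In LP, 0.871% of genes had as many RUNX1 peaks as Irf8 or more. Cebpb followed with 9 RUNX1, 9 Med12 and 11 p300 peaks in LP. Spi1, Cebpa and Gfi1 held 6, 4 and 7 RUNX1 peaks in LP. CTCF was spread differently. Spi1 had 13 CTCF peaks in LP and 12 in Phase 1, and 97.1% of genes had fewer than 13 in LP. Gfi1 had 1 CTCF peak in LP and 2 in Phase 1. The windows differ in length and in how many other genes they hold, from none at Cebpa to 5 at Spi1. The deposited annotation named the member as the nearest gene for 183 of the 387 peaks, from 16 of 85 at Spi1 to 79 of 98 at Irf8.

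**Figure D1:**
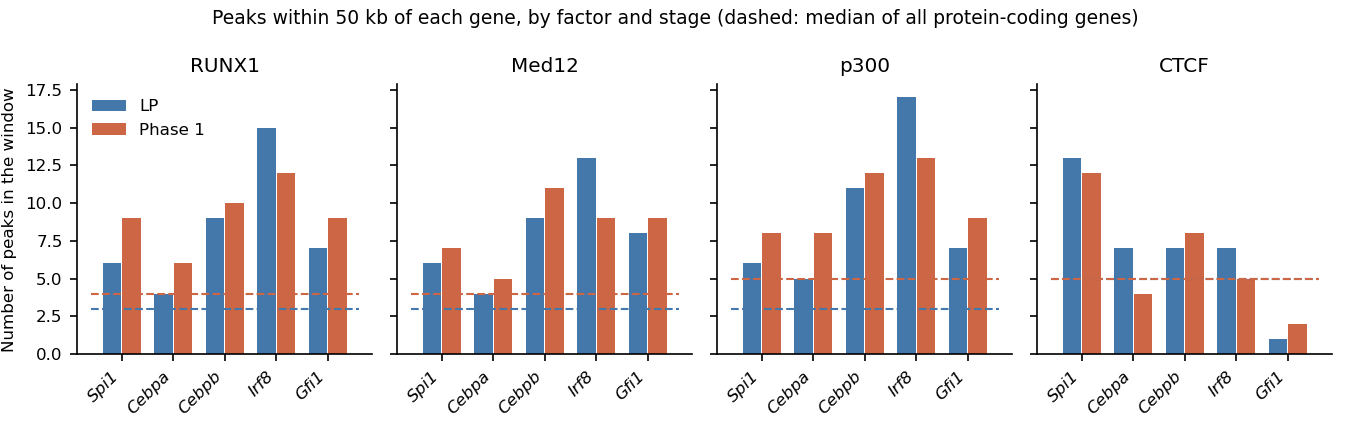
Number of RUNX1, Med12, p300 and CTCF peaks (y axis) in the window of each gene in LP (blue) and Phase 1 (orange), 1 list of combined replicates per bar. Dashed lines give the median over 21938 protein-coding genes; Irf8 holds the most RUNX1 peaks in both stages, 15 and 12, and the orange bar is the lower one for RUNX1, Med12 and p300 at Irf8 alone.

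Between the stages, Irf8 went the opposite way from the other 4 genes. It held 12 RUNX1, 9 Med12 and 13 p300 peaks in Phase 1, which is 3, 4 and 4 fewer than in LP. The other genes held more Phase 1 than LP peaks of all 3 factors, from Phase 1 lists that were also longer. Those lists held 38399 RUNX1, 39132 Med12 and 49116 p300 peaks, against 31995, 30020 and 36182 in LP. Of the window peaks found in Phase 1 only, some scored close to 15, the lowest score kept, and others well above it. RUNX1 numbered 9 in Phase 1 against 6 in LP at Spi1, 6 against 4 at Cebpa, 10 against 9 at Cebpb and 9 against 7 at Gfi1. Of all protein-coding genes, 23.6% had more Phase 1 than LP peaks of each of the 3 factors and 5.09% had fewer of each. A change as low as that of Irf8 in all 3 factors was found at 10 of 21938 genes, Irf8 included. This rank describes 1 gene singled out after its values were seen, and neighbouring genes share windows. The difference at Irf8 remained negative for all 3 factors in each alternative run, from -1 to -7 for RUNX1, -3 to -8 for Med12 and -3 to -10 for p300. It was -5, -8 and -9 when equal numbers of top-scored peaks were taken from both stages, a run added after the values were seen. The differences of the other 4 genes were not run under these alternatives. The lists combine the replicates, so these counts have no error between cultures and were not tested.

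**Figure D2:**
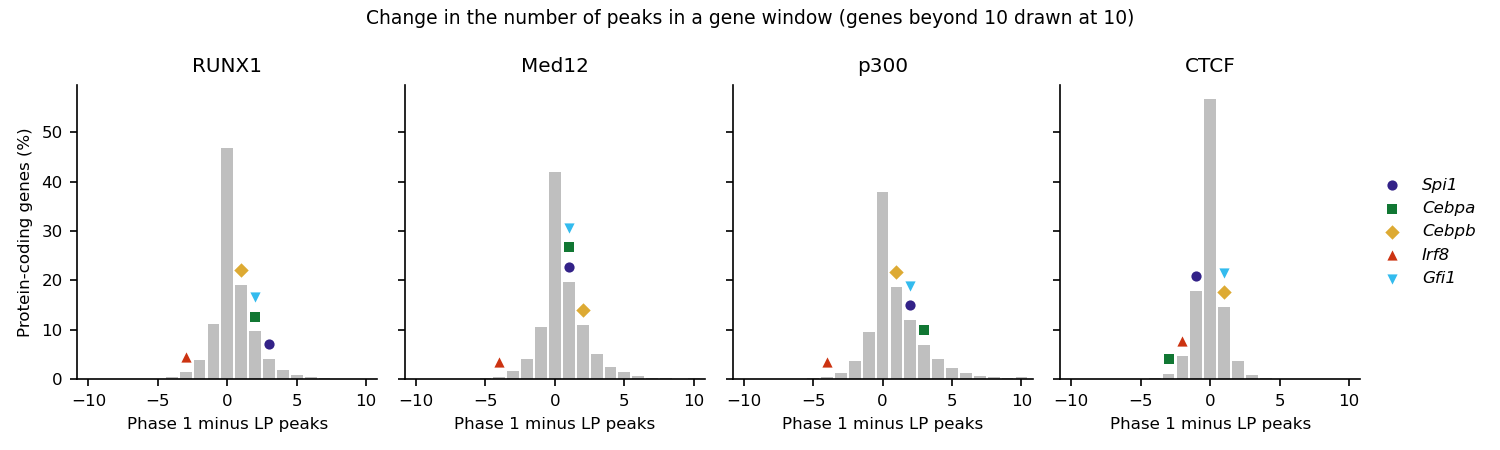
Phase 1 minus LP number of peaks in a gene window (x axis) against the share of 21938 protein-coding genes (grey bars, y axis), with the 5 genes marked above the bar of their value. Irf8 (red triangles) lies at -3 for RUNX1, -4 for Med12 and -4 for p300, while the other 4 genes lie at 1 to 3 for these factors.

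Stage-specific sites give the same data by position. A peak counted as specific to its stage (LP-specific, Phase 1-specific) if it shared not even 1 bp with a peak of that factor in the other stage. In the 5 windows, 3 of 41 LP RUNX1 peaks were LP-specific (7.32%, 95% Wilson interval 2.52% to 19.4%), against 16.8% of the whole LP list. All 3 were at Irf8. Of the Phase 1 RUNX1 peaks, 9 of 46 were Phase 1-specific (19.6%, interval 10.7% to 33.2%), against 30.7% of the list. The intervals cover counting error only. For Med12, 7 of 40 LP peaks were LP-specific against 19.5% of the list, and 6 of these 7 were at Irf8. Of the Phase 1 Med12 peaks, 8 of 41 were Phase 1-specific, against 38.2% of the list. For p300, 5 of 46 LP peaks were LP-specific against 20.7% of the list, 4 of them at Irf8, and 9 of 50 Phase 1 peaks were Phase 1-specific against 41.6%.

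Sites of either stage were thus shared by both stages more often than in the lists as a whole. The shared portion was 76.0% of 50 RUNX1 sites (interval 62.6% to 85.7%) against 60.8% of all sites, 68.8% of 48 Med12 sites (54.7% to 80.1%) against 53.7%, and 74.5% of 55 p300 sites (61.7% to 84.2%) against 50.7%. For CTCF the order was turned. The shared portion was 73.7% of 38 sites (58.0% to 85%) against 83.6% of all sites, an interval that holds the overall value. These are shares of peaks that lie next to each other in 5 places, so they describe the loci and carry no test.

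**Figure D3:**
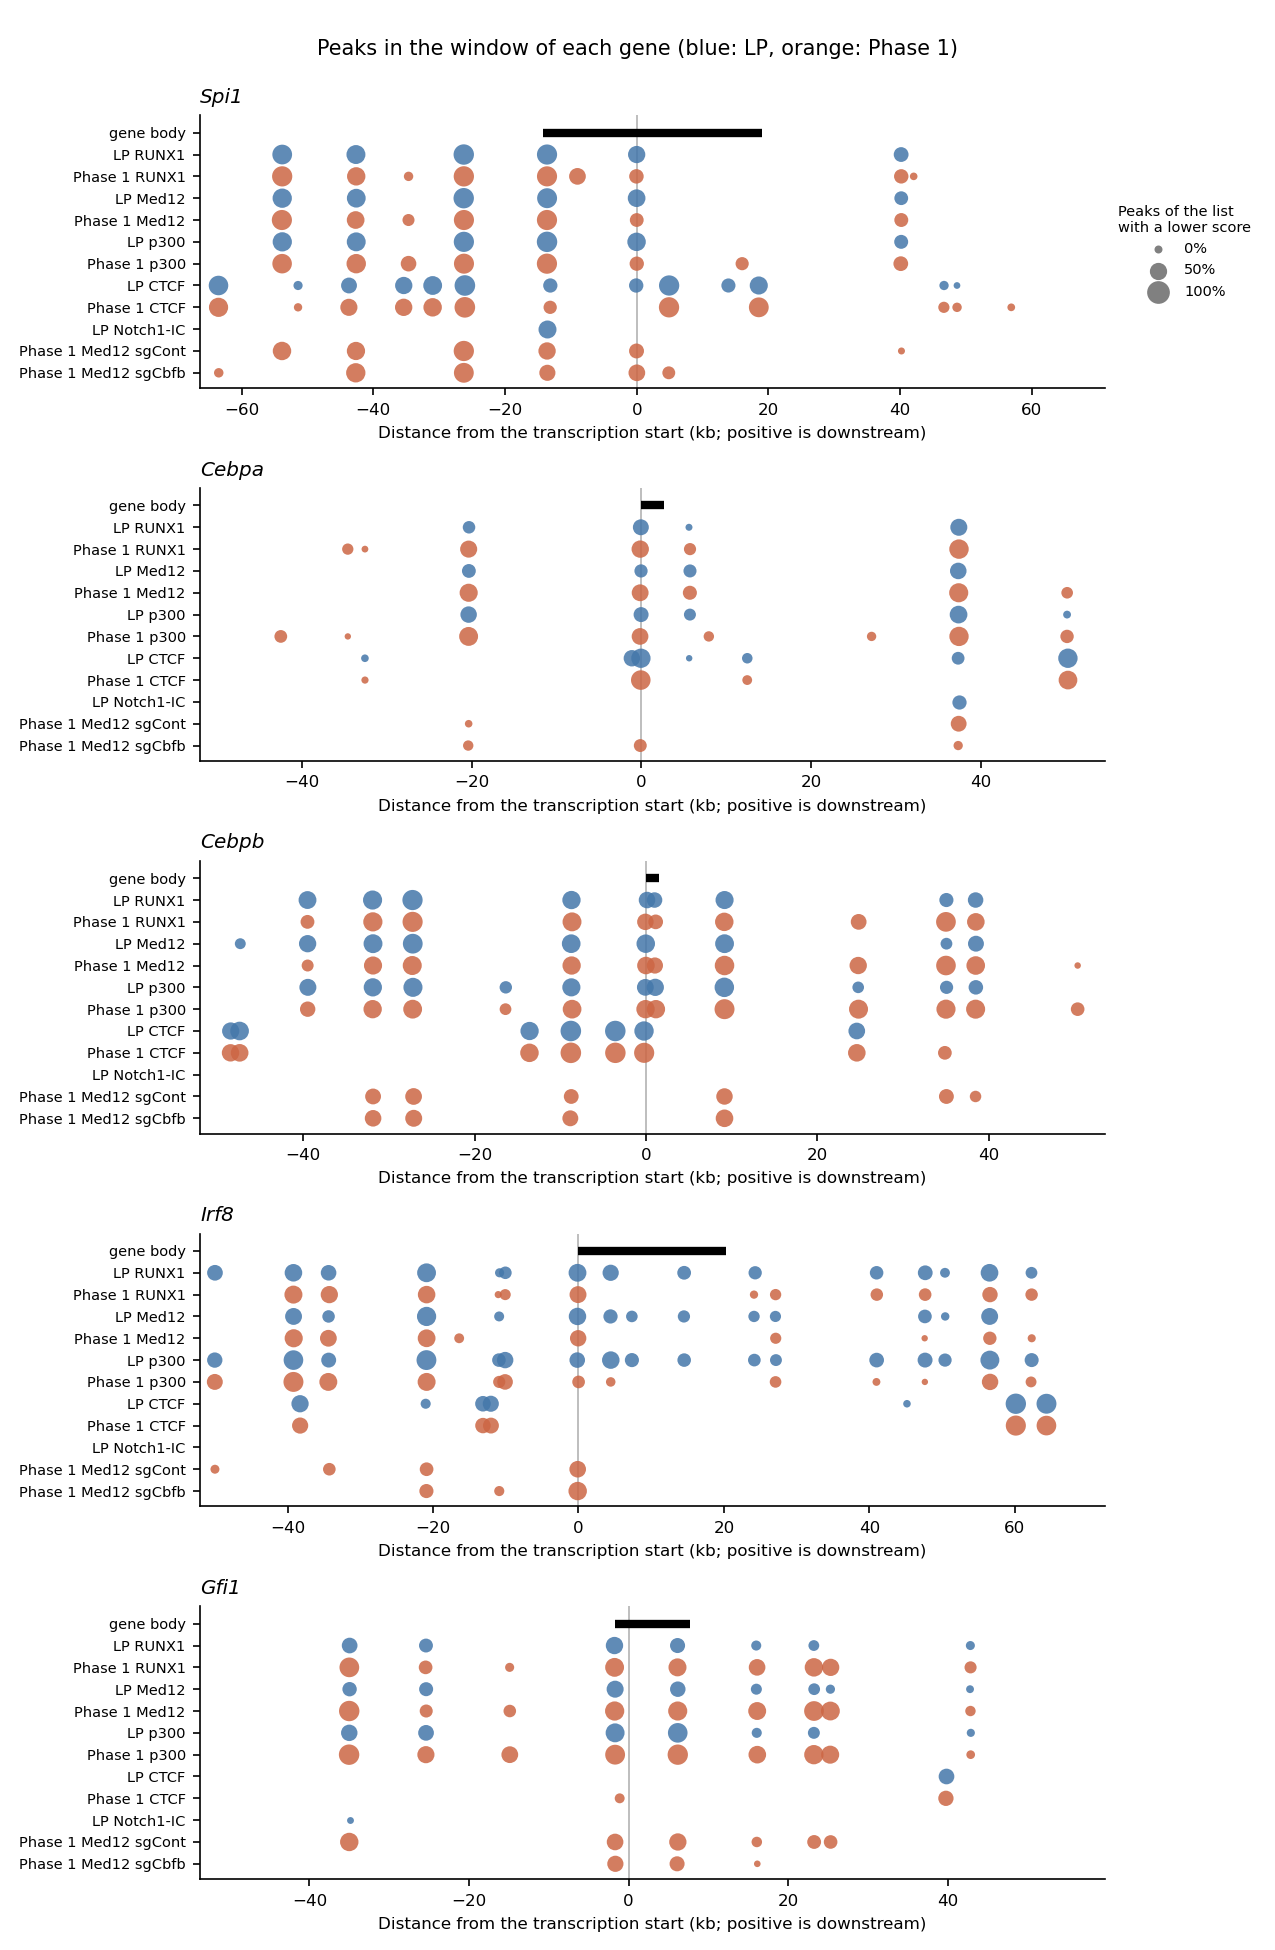
Peaks in each window by distance from the RefSeq start in kb (x axis), 1 row for each list shown, with LP in blue, Phase 1 in orange and the gene body as a black bar. The size of a point is the percentage of the peaks of its list that score lower; at Irf8 the stretch from +4.4 to +24.1 kb holds Med12 points in LP and none in Phase 1, and Notch1-IC points appear at Spi1, Cebpa and Gfi1 in LP.

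Each peak carries the authors' normalized peak score, which was never under 15. Because scores of different lists are not on a common scale, a peak is also described by its position, the percentage of the peaks of its own list that score lower. At Irf8 the LP-specific RUNX1 peaks were at +4.4 kb (score 58.6, position 58.6%), +14.5 kb (36.9, 39.5%) and +50.4 kb (21.7, 15.9%). All 3 held LP Med12 and LP p300 peaks. None of these sites held a Phase 1 Med12 peak, and p300 was found in Phase 1 at +4.4 kb only, with a score of 20.2 and a position of 14.4%. The +4.4 kb site lies over an exon of Irf8 and the +14.5 kb site in an intron. Another Irf8 intronic site, at +7.3 kb, held LP Med12 (27.6) and LP p300 (43.5) peaks and no RUNX1 peak. The -50 kb site lies on the edge of the window. Its LP RUNX1 peak (52.4) counts and its Phase 1 RUNX1 peak (69.8) does not, since the centre of the latter falls just outside, so 1 of the net difference of 3 comes from the edge of the window. The 1 Phase 1-specific RUNX1 peak of Irf8 was at +27.1 kb (24.3, position 24%), where Med12 and p300 peaks were present in both stages.

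The Irf8 sites bound in both stages mostly stood lower in the Phase 1 lists. The highest-scored LP RUNX1 peak, at -20.9 kb, had a score of 112.9 (position 81.9%) in LP and 75.1 (69.8%) in Phase 1. At this site the LP list of CTCF had a peak of 24.7 and the Phase 1 list had none. The highest-scored Phase 1 RUNX1 peak, at -39.2 kb, stood at 74.1% in Phase 1 and 70.1% in LP. The site over the start of Irf8, at -0.1 kb, had RUNX1 at 72.5% in LP and 64.6% in Phase 1, and p300 at 53.2% and 32.3%. At +56.5 kb, the position of a described myeloid enhancer, RUNX1 stood at 71.1% and 51.7% and p300 at 82.8% and 60.2%. At +41 kb, described as an enhancer in dendritic cells, p300 stood at 46.4% in LP and 7.02% in Phase 1. Over the window, 3 of 11 RUNX1 sites with both peaks inside it, 2 of 7 Med12 sites and 3 of 13 p300 sites stood higher in Phase 1 than in LP. In the whole lists, 61.8% of shared LP RUNX1 peaks, 58.9% of Med12 peaks and 64.4% of p300 peaks did. For CTCF, 45.7% did overall and 0 of 5 at Irf8.

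Gfi1 showed the reverse arrangement. Every RUNX1, Med12 and p300 site of LP was found again in Phase 1, and most stood higher there. The site at -35 kb, inside an intron of the neighbouring Evi5, was the highest-scored RUNX1 site of the window in Phase 1. Its RUNX1 score was 52.5 (position 54.2%) in LP and 161.7 (90.6%) in Phase 1. Med12 was 42.4 (44.2%) and 206.6 (97.7%), and p300 was 73.2 (60.4%) and 362.7 (98.0%). The site downstream at +23.2 kb had RUNX1 at 24.2 (21.1%) and 99 (78.5%), and p300 at 29.7 (27.8%) and 143.3 (86.7%). A nearby site at +25.3 kb held the highest-scored Phase 1-specific RUNX1 peak of Gfi1 (70.0, position 67.5%), together with a Phase 1-specific p300 peak (90.0), while Med12 was 20.8 in LP and 90.0 in Phase 1. The other Phase 1-specific RUNX1 peak, at -14.9 kb, had a score of 19.1. Over the window, 6 of 7 shared RUNX1 sites, 7 of 8 Med12 sites and 7 of 7 p300 sites stood higher in Phase 1. In the whole lists, 61.8%, 58.9% and 64.4% of shared LP peaks of these factors did. The Gfi1 site that stood lower for RUNX1 and Med12 was the -25.4 kb site. The highest-scored LP RUNX1 peak of Gfi1 lay at -1.7 kb, at the promoter of Gfi1 in the deposited annotation and over an exon of the noncoding A430072P03Rik in GENCODE, with 75.3 in LP (68.2%) and 112.5 in Phase 1 (82.2%). The peak nearest to the RefSeq start was a Phase 1-specific CTCF peak at -1.1 kb (25.5).

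**Figure D4:**
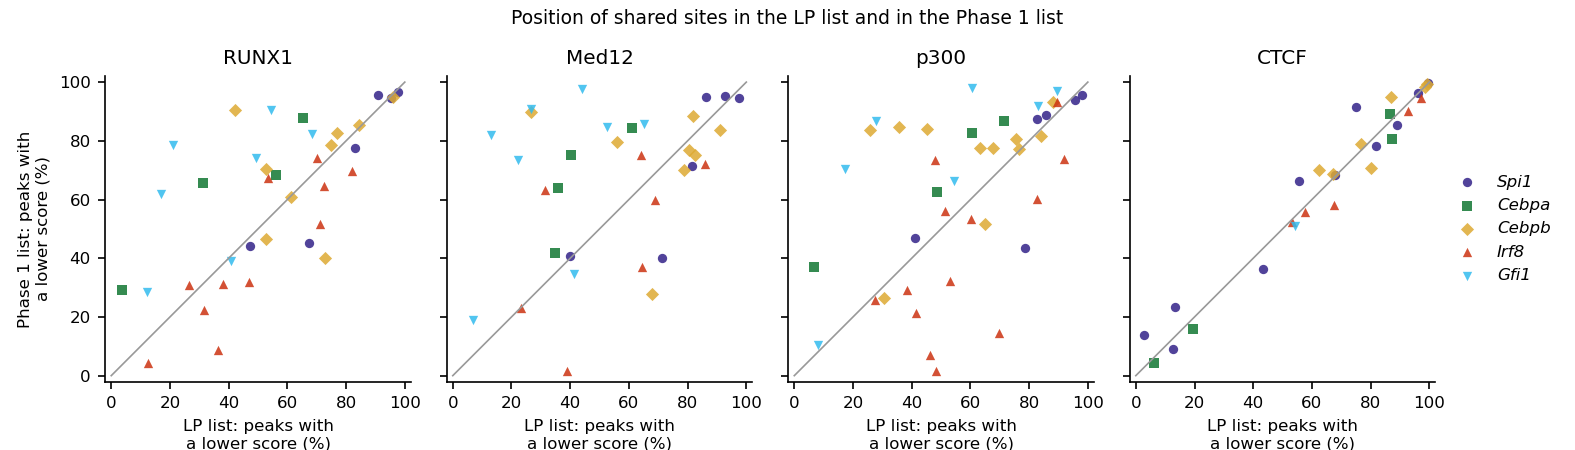
Position of each shared site in the LP list (x axis) and in the Phase 1 list (y axis), as the percentage of the peaks of that list with a lower score, for RUNX1, Med12, p300 and CTCF. Points above the grey line stood higher in Phase 1. The p300 points of Gfi1 (blue) all lie above it, and 10 of the 13 p300 points of Irf8 (red) lie below it. The CTCF point farthest from it, at +18.5 kb of Spi1, stood 16.7 points higher in Phase 1.

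Cebpa resembled Gfi1 in its shared sites, which were fewer. Unlike at Gfi1, 1 of its 5 LP p300 peaks, at +5.7 kb (29.9), was LP-specific. Of its 9 p300 sites 44.4% were shared, against 50.7% of all sites. All 4 shared RUNX1 sites, all 4 Med12 sites and all 4 p300 sites stood higher in the Phase 1 lists. In the whole lists, 61.8%, 58.9% and 64.4% of shared LP peaks of these factors did. The highest-scored RUNX1 peak of both stages was the +37.4 kb site shown above, the position of the enhancer that granulocytes and monocytes use. RUNX1 was 69.4 (position 65.2%) in LP and 141.0 (87.9%) in Phase 1, p300 99.3 (71.3%) and 143.1 (86.7%), and Med12 64.6 (61.2%) and 97.5 (84.5%). An LP CTCF peak of 39.1 lay at the same place, and no Phase 1 CTCF peak did. At -20.4 kb, a site chosen after its values were seen, RUNX1 was 30.6 (31.3%) and 66.5 (65.7%). The Phase 1-specific RUNX1 peaks were at -34.6 kb (24.2, position 23.8%) and -32.6 kb (15.9), the latter at a CTCF peak present in both stages. The site over the start, at -0.1 kb, held RUNX1, Med12, p300 and CTCF in both stages, with RUNX1 at 55.0 and 71.7 and CTCF at 191.6 and 221.8. CTCF was less frequent in Phase 1. Cebpa held 7 CTCF peaks in LP and 4 in Phase 1, the LP-specific ones being at -1.1 kb (90.6), +37.4 kb (39.1) and +5.7 kb (15.8). A change of -3 CTCF peaks or lower was found at 1.35% of protein-coding genes.

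At Cebpb the sites were mixed. The highest-scored RUNX1 peak of both stages, at -27.2 kb in an intron and at a promoter of Tmem189, had 221.0 (position 95.8%) in LP and 210.2 (94.8%) in Phase 1. RUNX1 stood higher in Phase 1 at -31.9, -8.7, +9.2, +35.0 and +38.5 kb, by 0.99, 5.90, 3.62, 48.3 and 17.7 points. At +35.0 kb, in an intron of the noncoding A530013C23Rik, RUNX1 was 39.1 (42.3%) in LP and 161.6 (90.6%) in Phase 1, Med12 28.3 (26.7%) and 120.0 (89.7%), and p300 36.4 (35.6%) and 130.9 (84.7%). A Phase 1-specific CTCF peak (49.3) lay at the same site. The 1 Phase 1-specific RUNX1 peak of the window was at +24.7 kb (49.6, position 54.6%), where CTCF was present in both stages and p300 was 28.2 in LP and 124.5 in Phase 1. The site at -39.5 kb, noted after its values were seen, went the other way, with RUNX1 at 85.3 in LP and 34.7 in Phase 1. Of 9 shared RUNX1 sites, 5 stood higher in Phase 1 (55.6%), near the 61.8% of shared peaks in the whole lists. For Med12 it was 3 of 8, against 58.9%, and for p300 8 of 11, against 64.4%. At the start, RUNX1 was 62.9 (61.3%) and 58.0 (60.7%).

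Spi1 held the highest RUNX1 scores of the 5 genes, at nearly the same position in both stages. The peak at -26.2 kb lay over a CTCF site at the promoter of the neighbouring Slc39a13, which the deposited annotation names as its nearest gene. It had 264.2 (position 97.7%) in LP and 244.8 (96.5%) in Phase 1. The site at -13.6 kb lies at the distance described for the upstream regulatory element that RUNX1 is known to bind in blood progenitors. It had RUNX1 at 210.8 (95.2%) and 208.5 (94.7%), p300 at 388.2 (98.0%) and 256.2 (95.5%), and Med12 at 180.8 (92.8%) and 163.4 (95.2%). The RefSeq start of Spi1 stood lower in Phase 1, with RUNX1 at 74.0 (67.5%) and 39.0 (45%), p300 at 123.5 (78.5%) and 38.3 (43.5%), and an LP-specific CTCF peak of 54.0. The highest of the 3 Phase 1-specific RUNX1 peaks lay at -9.0 kb in an intron of the longer transcript (61.2, position 62.7%) and held no Med12, p300 or CTCF peak of either stage. The other Phase 1-specific peaks were at -34.6 kb in Slc39a13 (19.7) and +42.1 kb in Madd (16.8). Of 6 shared RUNX1 sites, 1 stood higher in Phase 1, against 61.8% of shared peaks in the whole lists. For Med12 it was 3 of 6, against 58.9%, and for p300 3 of 6, against 64.4%.

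To see where RUNX1 met its partners, RUNX1 peaks were counted with a peak of the other factor. An LP CTCF peak overlapped 8 of 41 LP RUNX1 peaks in the windows (19.5%, interval 10.2% to 34.0%), against 23.2% of the list. In Phase 1 it was 7 of 46 (15.2%, 7.57% to 28.2%) against 15.7%. Both shares were near that of the list. Med12 overlapped 38 of 46 Phase 1 RUNX1 peaks (82.6%, 69.3% to 90.9%) against 86.0%, and p300 overlapped 41 of 46 (89.1%, 77.0% to 95.3%) against 87.8%. In LP, all 41 RUNX1 peaks held a p300 peak, against 90.8% of the list, and 37 held a Med12 peak (90.2%, 77.5% to 96.1%), against 84.7%. LP-specific CTCF peaks numbered 7 of 35 in the windows (20.0%, interval 10.0% to 35.9%), against 9.55% of the list, and Phase 1-specific ones 3 of 31 against 8.35%. Of the 7 LP-specific CTCF peaks, 4 lay at an LP RUNX1 peak (57.1%, interval 25% to 84.2%), against 27.0% of LP-specific CTCF peaks overall. They were at the start of Spi1, at +5.7 and +37.4 kb of Cebpa and at -20.9 kb of Irf8. The interval holds the overall share.

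Notch1-IC peaks were found at 3 of the 5 genes, each time in the LP list, which comes from cells without a ligand. The peaks were at -13.6 kb of Spi1 (27.3, position 73.9%), at +37.4 kb of Cebpa (19.4, 43.0%) and at -35 kb of Gfi1 (15.2, 3.22%). None was left with a minimum score of 30, in an LP list whose median score was 20.3. All 3 overlapped an LP RUNX1 peak, as did 89.2% of the 1585 LP Notch1-IC peaks. Whether such peaks mark Notch1-IC or background at sites bound by other factors was not tested. The 3 peaks lie at the same sites that matched described enhancers of these genes. Neither the Phase 1 list, with 152 peaks, nor the Phase 2 list, with 352, had a peak in any window. Both lists are shorter than the reproducible peak sets that the study describes for these stages, and lists this short hold a peak in few windows. At 1585 peaks, 11.9% of protein-coding genes had 1 or more. An RBPJ string lay within 100 bp of the RUNX1 peak centre at the Cebpa site and not at the Spi1 and Gfi1 sites. The Spi1 site held none of the search strings under its RUNX1 peak of either stage.

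The guide lists were read for RUNX1 and Med12 peaks that were present with the control guide and absent with another guide. The study describes ChIP-seq from guide-treated cells as made from few cells and noisy, and the lists of RUNX1 held 874 to 2094 peaks. With sgCbfb, 15 of 24 Phase 1 Med12 peaks of the windows were found again (62.5%, interval 42.7% to 78.8%), and 9 were absent, against 32.2% absent over the whole list. All 24 sgCont peaks, absent and kept, lay at a Phase 1 RUNX1 peak, as did 94.4% of the list. The highest-scored absent peaks of each window were at -53.8 kb of Spi1 in Rapsn (63.7, position 78.2%), -35 kb of Gfi1 (63.1, 77.9%), +35.0 kb of Cebpb (34.2, 47.8%) and -34.4 kb of Irf8 (26.0). The remaining 5 were at +25.3 and +23.2 kb of Gfi1, +38.5 kb of Cebpb, -50 kb of Irf8 and +40.2 kb of Spi1. Absent peaks had a median position of 38.7% in the sgCont list and kept ones 60.6%, against 27.6% and 62.3% overall. At Cebpa both sgCont Med12 peaks were found again, the +37.4 kb peak with 39.0 (55.2%) for sgCont and 18.8 (13.2%) for sgCbfb. At -13.6 kb of Spi1 Med12 was 50.5 (68.1%) and 42.7 (57.6%).

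Of the 19 sgCbfb Med12 peaks in the windows, 4 were found with sgCbfb only, against 28.6% of that list. They were at -63.5 kb (19.1) and +4.9 kb (26.9) of Spi1, over the start of Cebpa (27.1) and at -10.9 kb of Irf8 (20.2). The first 3 lay at a Phase 1 CTCF peak. In the whole list, 44.5% of Med12 peaks found with sgCbfb only did. The Spi1 pair held no RUNX1 peak of either stage.

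RUNX1 lists with guides held few peaks here. In LP, the 1 sgCont peak was at -26.2 kb of Spi1 (43.6, position 91.4%), and it was absent with sgCTCF, as were 40.9% of all sgCont peaks. The windows held no sgCTCF peak at all. The share found with sgCTCF only, 34.1% in that list, therefore has no counterpart here. In Phase 1, 4 of 6 sgCont RUNX1 peaks were found again with sgMed12 (66.7%, interval 30.0% to 90.3%), and 29.0% of all sgCont peaks were absent. Those found again were at +37.4 kb of Cebpa, at -35 and -1.7 kb of Gfi1 and at -53.8 kb of Spi1. Those absent were both at Spi1, at -26.2 kb (49.0, position 93.9%) and -9.0 kb (16.3). None of the 4 sgMed12 peaks was found with sgMed12 only, against 47.4% of the list. Counts of this size cannot show a difference from the list.

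Under the RUNX1 peaks, the search strings occurred about as often as under all RUNX1 peaks. In LP, 9 of 41 peaks held a RUNX string against 21.2% of the list, 5 a PU.1 string against 9.02%, 1 a C/EBP string against 1.38% and none the CTCF consensus against 2.17%, where 0 of 41 allows up to 8.57%. In Phase 1, 10 of 46 held a RUNX string against 25.4%, 5 a PU.1 string against 8.63%, 2 a C/EBP string against 1.47% and none the CTCF consensus against 0.711%. Of the PU.1 strings in LP, 4 were at Irf8, at +14.5, +47.6, +56.5 and +62.3 kb, and the other was at +40.2 kb of Spi1. The RBPJ string was found under 3 LP peaks, at +37.4 kb of Cebpa, +38.5 kb of Cebpb and +50.4 kb of Irf8, against 4.23% of the list. A match is a description of the letters, not of a bound site.

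Other myeloid genes were read by the same rule. Of 11 further myeloid transcription factor genes, 7 held more RUNX1 peaks in Phase 1 than in LP, none fewer and 4 as many. For Med12 and for p300, 8 held more and none fewer. Over all protein-coding genes 36.4% held more RUNX1 peaks and 16.9% fewer. For Med12 these shares were 41.1% and 16.9%, and for p300 46.8% and 15.3%. Zeb2, which encodes a zinc-finger factor of early progenitors and dendritic cells, held 3 RUNX1, 4 Med12 and 5 p300 peaks in LP and 10, 12 and 15 in Phase 1. Irf4, a relative of Irf8, held 5 RUNX1 peaks before Notch stimulation and 7 in Phase 1. Of 12 myeloid effector and receptor genes, 6 held more RUNX1 peaks in Phase 1 and 2 fewer. Elane, the neutrophil elastase gene, held 7 and 12, in a window that overlaps that of Prtn3. Itgam, which encodes CD11b, held 13 and 16. Those with fewer were Fcgr1, with 10 and 7, and Cybb, with 1 and 0.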

How the data were processed

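ChIP-seq peak lists of RUNX1, CTCF, Med12, p300 and Notch1-IC were analysed. Per the submitters' processing notes, reads were converted with bcl2fastq 1.8.4 and aligned to mm10 with Bowtie 1.1.1, and peaks were called with HOMER. The authors kept reproducible peaks of both replicates with a score of at least 15. The deposited score is a normalized peak score whose scale the lists do not state. No column held comparisons by the authors.

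Members, gene lists and search strings were chosen with earlier results of these data known. Sites named were the highest-scored, the stage-specific and guide-specific RUNX1 or Med12 peaks (up to 3 for each gene and stage), Notch1-IC peaks, the peak nearest the start and described enhancers; others were named after their values were seen. Windows of 50 kb were taken around GENCODE genes, and 122 peaks on other sequences were left unassigned. Peaks were called shared at 1 bp of overlap. Shares carry 95% Wilson intervals. Strings were searched in 200 bp of GRCm38.p6. With replicates combined, no test between samples was made. Overlap and counting steps were tested on simulated data. Windows of 25 and 100 kb, a score of 30 and other choices were tried. Python 3.11.15, pandas 2.3.3, scipy 1.17.1 and pysam 0.24.0 were used.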

Additional observations from a re-analysis of the deposited data

How the results depend on the processing

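No paired analysis was possible because the lists combine the replicates and no column carries one, and for the same reason no replicate could be left out. Of 69 alternative values for the main counts and shares, 64 stayed close to the reported value. For shares this meant within the counting interval, and for the number of peaks within a set ratio. Those intervals are wide for few peaks: the share found with sgMed12 was 33.3% (1 of 3) with windows of 25 kb in place of 66.7%, and the share of LP RUNX1 peaks with CTCF was 12.1% without promoter peaks in place of 19.5%. The number of peaks was 230 with windows of 25 kb and 619 with 100 kb, which follows from the window. With a minimum score of 30, the share of p300 sites found in both stages was 58.3% in place of 74.5%, and the share of Phase 1 sgCont RUNX1 peaks found with sgMed12 was 0% (0 of 2). With only the peaks nearest to the member, 87.5% of sgCont Med12 peaks (7 of 8) were found with sgCbfb, in place of 62.5%. The cause was not tested for the last 3. No LP sgCont RUNX1 peak was left for the sgCTCF comparison without promoter peaks or with nearest peaks only. Taking equal numbers of top-scored peaks was planned for the shares. Its use for the differences at Irf8 was chosen after seeing the data. The depth of each sample is not known here, and the short guide and Notch1-IC lists limit what an absent peak means.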
